A study of Mus musculus with 6 samples.

Results

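The genes of the NMDA receptor family were followed in bulk RNA-seq of mouse tissue taken at postnatal day 18. The 7 members, Grin1, Grin2a, Grin2b, Grin2c, Grin2d, Grin3a and Grin3b, were picked by symbol from the 24411 genes counted, without use of their values. The groups were 3 WT libraries and 3 libraries from mice that lack a large enhancer of Atoh7 (enhancer KO). Its gene product is a helix-loop-helix factor needed to make retinal ganglion cells. The labels name no strain, sex or other allele, do not say where the deletion lies or in which cells the enhancer acts, and call the libraries independent replicates without naming animals. P-values therefore measure the spread between these samples.

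NMDA receptors are glutamate-gated cation channels that admit calcium and are blocked by magnesium until the membrane is depolarised. Each channel joins the obligatory GluN1 subunit (Grin1) with GluN2 subunits (Grin2a to Grin2d), which set its kinetics, and in some cells with GluN3 subunits (Grin3a, Grin3b), which lower calcium entry. In the postnatal cerebellum granule neurons are known to exchange GluN2B for GluN2A and GluN2C as they mature, which makes GluN2C a marker of the mature granule cell.

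Source and tissue fields read retina and the protocol reads cerebellum, and the read counts carried cerebellar markers. Summed granule neuron markers (15 genes) ranged from 3532 to 4208 CPM (reads relative to library size in the usual CPM unit, with TMM-scaled sizes) in WT and from 2211 to 2738 CPM in enhancer KO, while 10 photoreceptor genes summed to 1.14 to 2.07 CPM in any library and 1 of them, Arr3, had no read. Reads in genes ranged from 22812075 to 40858310 per library. WT replicate 2 stood apart, with 20.4% of its reads unmapped and 12.9% of its gene reads on the ribosomal RNA gene Rn45s (1.51% to 3.02% elsewhere). Reads outside annotated exons made up 32.4% ± 1.56 of all reads in WT and 17.4% ± 0.735 in enhancer KO (SD, n = 3). WT replicate 1 alone had high Xist (1054 CPM, against 0.743 to 1.37 CPM elsewhere) and no Ddx3y read (91.4 to 106 CPM elsewhere). By these sex-linked genes it read as female and the other libraries as male. Sex was thus unbalanced between the groups, and its part was not tested. Of the fits reported here, only that without WT replicate 1 compared libraries that all read as male. Summed markers of midbrain and hindbrain nuclei (14 genes, among them the glutamate transporter gene Slc17a6) were at 186 and 191 CPM in WT replicates 2 and 3 and at 268 to 271 CPM in the other 4 libraries. Atoh7 itself was covered by 42 to 72 reads per WT library (1.94 to 2.13 CPM) and by 28 to 33 per enhancer KO library (0.695 to 0.858 CPM).

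The members are separate genes on 7 chromosomes whose coding sequences are related. In each of them a stretch of 24 coding bases encodes the core of the third membrane segment, the channel gate. This stretch was located by a protein motif that all members share, so its base differences do not measure how far the genes have diverged. It is given for 6 members, written 5′ to 3′ from the GENCODE release M21 transcripts on the coding strand, with capitals at bases that differ from Grin2c.
Grin2c: agctacacggccaatctggcagcc
Grin2d: agctaTacAgccaatctggcTgcc
Grin2a: agTtacacAgccaaCctggcTgcc
Grin1: TCctacacTgccaaCctggcagcc
Grin3b: agTtacacAgccaaCctggcagcT
Grin3a: aCAtacacAgcGaaCTtggcTgcT
From Grin2c, Grin2d differed at 3 of these bases, Grin1, Grin2a and Grin3b at 4 each and Grin3a at 8. Reads that fit several places were not counted, and the read length is not given in the sources used here.

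Grin2c, the subunit of mature granule neurons, fell in enhancer KO and was the member that changed most. The gene (ENSMUSG00000020734.13) spans mm10 chromosome 11 from 115249169 to 115267243 on the minus strand. Its level was 109.96, 128 and 133 CPM in WT replicates 1, 2 and 3 and 68.2, 62.0 and 84.0 CPM in enhancer KO replicates 1, 2 and 3. No library of the enhancer KO group reached the WT range, with WT replicate 1 the lowest of its group and enhancer KO replicate 3 the highest of its own. The mean went from 123 ± 11.9 to 71.4 ± 11.3 CPM (SD, n = 3), which is a fall of 42.1%. On the log2 scale the change was -0.79 with an SE of 0.132 and an edgeR adjusted p = 0.00722. The call held when any 1 library was left out, with edgeR adjusted p from 8.84e-05 to 0.0476. Without WT replicates 2 and 3 together, which leaves WT replicate 1 as the lone WT library, assumed to vary like the others and set apart by its Xist and Ddx3y, the log2 fold change was -0.60 and did not pass (edgeR adjusted p = 0.195).

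**Figure D1:**
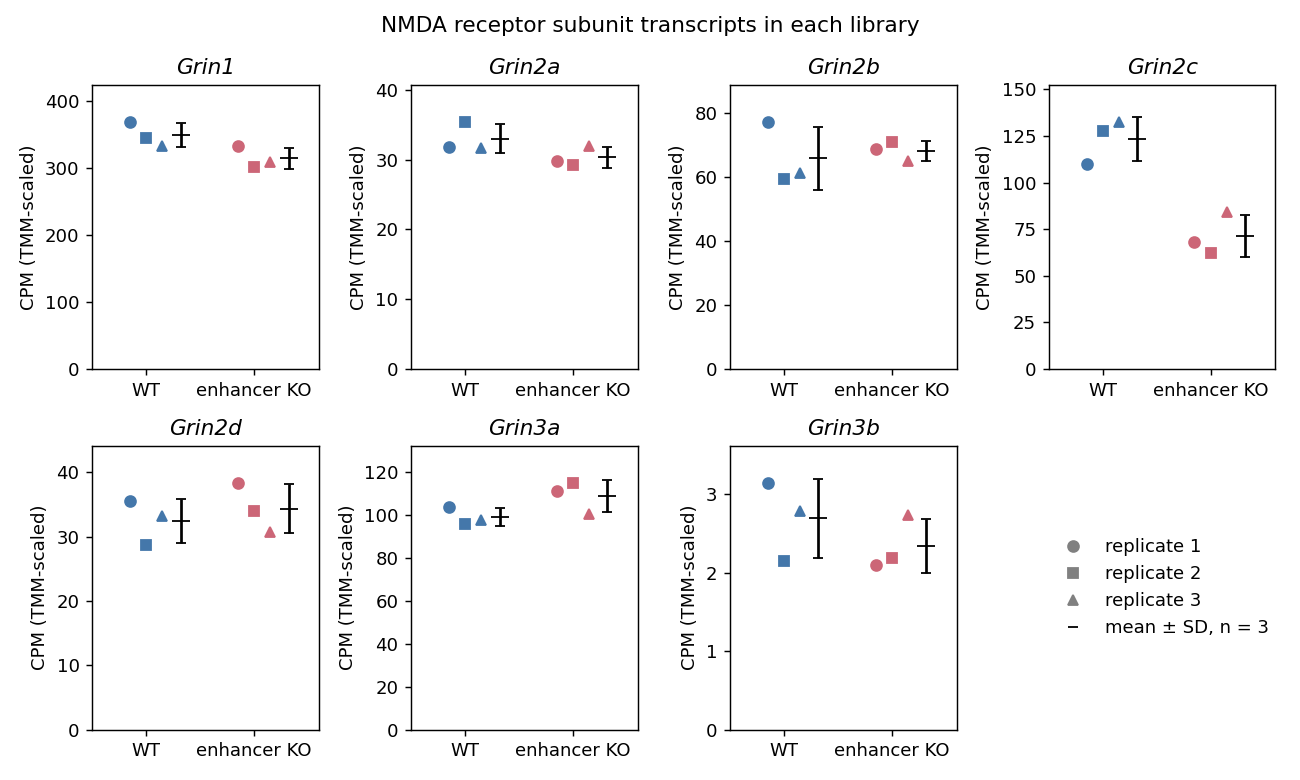
Level of each NMDA receptor subunit gene in CPM on a linear axis from 0, by group, with 1 point per library and the mean ± SD of 3 libraries beside it. Grin2c was at 109.96 to 133 CPM in WT and at 62.0 to 84.0 CPM in enhancer KO, while the groups of Grin2a, Grin2b, Grin2d, Grin3a and Grin3b overlapped.

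Granule neuron markers moved with Grin2c. All 15 markers of the list, none at 0, were lower in enhancer KO by edgeR, with a median log2 fold change of -0.63 against 0.00 over all 15846 genes tested, and the list was chosen with earlier results of these data known. Of 8 endothelial markers 5 were also lower (median log2 fold change -0.36), while 7 of 12 Purkinje cell, 4 of 10 Bergmann glia and astrocyte and 3 of 8 microglial markers were higher. Inhibitory interneuron markers had 4 higher and 1 lower of 11, and oligodendrocyte markers 1 higher and 1 lower of 9. Of 5 choroid plexus markers 0 were called. Over all genes tested, 17.9% were called lower and 13.4% higher. With single libraries left out, the microglial markers called higher numbered from 1 to 7. Of the granule markers, between 9 and 15 were called lower when 1 library was left out (9 without enhancer KO replicate 1), and 6 without WT replicates 2 and 3. As a share of the reads on these markers, Grin2c differed less between the groups. The log2 ratio of Grin2c reads to granule marker reads was -5.01, -5.04 and -4.95 in WT replicates 1 to 3 and -5.07, -5.16 and -5.03 in enhancer KO replicates 1 to 3. These ranges overlapped, with a mean difference of -0.09 (exact two-sided permutation p = 0.2, adjusted 0.2 over 3 such ratios). In bulk tissue, fewer granule neurons and less RNA per granule neuron cannot be told apart.

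**Figure D2:**
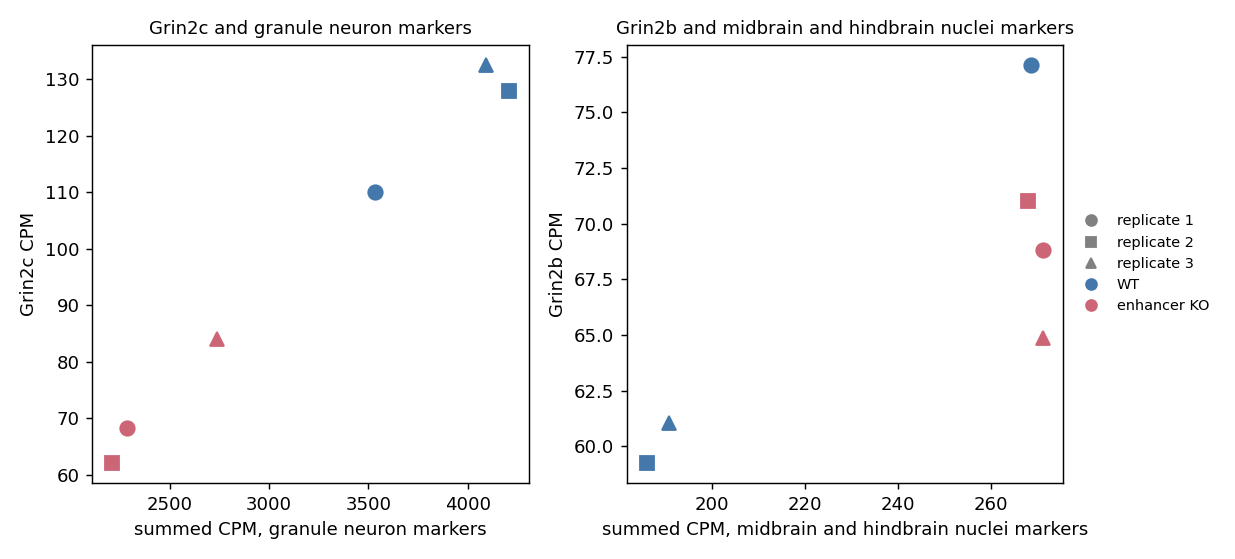
Left, CPM of Grin2c against the summed CPM of 15 granule neuron markers; right, CPM of Grin2b against the summed CPM of 14 markers of midbrain and hindbrain nuclei, with 1 point per library and axes that do not start at 0. Grin2c and the granule markers were both lower in the 3 enhancer KO libraries, and Grin2b and the nuclei markers were both lowest in WT replicates 2 and 3.

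The genes whose pattern over the 6 libraries was most like that of Grin2c, among 10309 genes with a mean of at least 10 CPM, included Grm4, Ackr1, Il16 and Eps8 (Pearson r of log2 CPM from 0.9961 to 0.9971). The libraries form 2 groups, so these values mostly carry the difference between them. Grm4, a presynaptic glutamate receptor gene of granule neurons that is also on the marker list, went from 272 to 176 CPM, and Il16 from 122 to 66.4 CPM. Ackr1 had a log2 fold change of -0.51 and Eps8 of -0.31.

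The start of Grin2c is shown because its transcript changed most. RefSeq (GRCm38.p6) promoter entries matched Grin1, Grin2c, Grin2d and Grin3b, 4 of the 7 members. The Grin2d window, chr7:45866682-45866931 on the minus strand, lies inside the GENCODE span of that gene, which runs to 45878378. Matches before Grin2d therefore precede an inner start site. The 250 bases before the Grin2c start site, chr11:115267244-115267493 on the minus strand, are written 5′ to 3′ with matches to the GC box GGGCGG, the site of Sp1, in capitals.
Grin2c: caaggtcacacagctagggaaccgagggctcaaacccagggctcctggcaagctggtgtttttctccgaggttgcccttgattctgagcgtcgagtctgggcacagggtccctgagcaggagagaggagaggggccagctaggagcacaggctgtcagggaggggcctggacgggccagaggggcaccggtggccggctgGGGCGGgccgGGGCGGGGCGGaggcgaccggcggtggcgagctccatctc
This window was 68.8% G and C and held 3 GC boxes on either strand, 2 of them sharing a base, and the windows of Grin1, Grin2d and Grin3b held 0. Of all 27025 promoters of this length, 32.9% held at least 1. The E-box CANNTG, the motif of basic helix-loop-helix factors, had 0 matches before Grin2c, 4 before Grin1, 1 before Grin2d and 2 before Grin3b, and 66.0% of all promoters held it. TTGGC, the core of a nuclear factor I site, had 1 match before Grin1 and 0 before the other 3 members, against 41.9% of promoters with a match. GGAAG, 1 form of an ETS site such as that of Etv1, had 0 matches before Grin1 and Grin2c, 2 before Grin2d and 1 before Grin3b. Of all promoters 63.6% held it. The shorter ETS core GGAA was not counted, and it does occur in the Grin2c window shown.

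Grin1, the subunit present in every NMDA receptor, was slightly lower in enhancer KO. It spans mm10 chromosome 2 from 25291181 to 25319187 on the minus strand and was at 368, 345 and 333 CPM in WT replicates 1 to 3 and at 332, 301 and 309 CPM in enhancer KO replicates 1 to 3. The groups did not overlap but nearly touched, between WT replicate 3 and enhancer KO replicate 1. Grin1 fell by 9.95%, on the log2 scale -0.15 with an SE of 0.0518 (edgeR adjusted p = 0.0434). This call did not survive the removal of any single library except WT replicate 3. The edgeR adjusted p was 0.117 and 0.0828 with WT replicates 1 and 2 removed in turn and 0.0510, 0.180 and 0.104 with enhancer KO replicates 1, 2 and 3 removed. It was also lost with RLE scaling (0.0547) and with library size alone (0.462). With the trend of each library over gene length, intron length and GC content removed, the log2 fold change was 0.00.

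Grin1 and Grin2c were the 2 members of 7 called, both lower, and 0 were higher by edgeR, limma-voom or DESeq2. At an unadjusted edgeR p under 0.05, 1 member was higher (Grin3a, 0.0308). All 7 had passed the filter on low counts. Across all genes tested, 31.3% were called, 17.9% lower and 13.4% higher. With library size alone 43.8% of the calls over all genes were lower, against 57.3% with TMM, and with the gene structure trend removed 36.9%. The group ranges of 2 members did not overlap, both lower, against 44.8% of all genes (24.3% lower, 20.5% higher). Reads outside exons and granule markers differed between the same libraries, and the part of the former was not tested beyond the trend over gene structure. The members' median log2 fold change was -0.12. Without WT replicate 1, where all libraries read as male, edgeR called 3 members, Grin2c lower and Grin2b and Grin3a higher. In that fit 2214 of 16048 genes were called higher and 2710 lower. WT replicate 1 also differed from WT replicates 2 and 3 in its nuclei markers, and these differences cannot be told apart.

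The other GluN2 genes did not pass the test. Grin2b, the subunit of immature granule neurons and of many forebrain and brainstem neurons, lies on chromosome 6 at 135713233 to 136173511. It was at 77.2, 59.2 and 61.1 CPM in WT replicates 1 to 3 and at 68.8, 71.0 and 64.9 CPM in enhancer KO replicates 1 to 3, so that the enhancer KO libraries lay inside the WT range. Its log2 change was 0.05 with an SE of 0.0981 and a 95% interval from -0.18 to 0.28 (edgeR adjusted p = 0.754). Without WT replicate 1, Grin2b was called higher at 0.18 (edgeR adjusted p = 0.0219). It was at -0.01 when WT replicate 2 or WT replicate 3 was removed. With the gene structure trend removed it was also called higher, at 0.31 (edgeR adjusted p = 0.0109). Its introns span 435437 bases, the most of any member, and the trend over gene structure alone came to -0.244 for such a gene.

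The summed markers of midbrain and hindbrain nuclei were, like Grin2b, lowest in WT replicates 2 and 3. Most of this sum was Slc17a6, at 131 to 201 CPM. Gata3, Tal1, Sox14 and Tph2 were also lowest in these libraries, while Otx2, Pou4f1, Gata2 and Lmx1b were not. Of the 12 tested, 1 was called higher by edgeR (Th), and 5 without WT replicate 1. The log2 ratio of Grin2b reads to these marker reads was -1.80, -1.65 and -1.64 in WT replicates 1 to 3 and -1.98, -1.92 and -2.06 in enhancer KO replicates 1 to 3. It was lower in every enhancer KO library, by 0.29 in the mean (exact two-sided permutation p = 0.1, the smallest that 3 against 3 allows, adjusted 0.15 over 3 such ratios). The remaining ratio, Grin2b to granule marker reads, was higher in every enhancer KO library, by 0.77 in the mean (exact two-sided permutation p = 0.1, adjusted 0.15). All 15 granule markers were called lower, on a list chosen with earlier results known, and Grin2b was at 0.05. The rise of this ratio followed from that list, so its test decides nothing. The part of midbrain and hindbrain nuclei in the Grin2b level was not tested. The genes most like Grin2b over the 6 libraries were Tenm2, Zfhx4, Cit, Pianp and Pde1b (Pearson r from 0.9711 to 0.9748), with log2 fold changes from 0.01 to 0.15.

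Grin2a, the subunit that takes over from GluN2B in most maturing neurons, lies on chromosome 16 at 9567898 to 9995560. It was at 31.9, 35.4 and 31.7 CPM in WT replicates 1 to 3 and at 29.7, 29.2 and 32.01 CPM in enhancer KO replicates 1 to 3, and enhancer KO replicate 3 lay within the WT range. Its log2 change was -0.12 with an SE of 0.0633 and a 95% interval from -0.26 to 0.02 (edgeR adjusted p = 0.185). Grin2d, a subunit of slow channels found in interneurons and brainstem, lies on chromosome 7 at 45831883 to 45878378. It was at 35.5, 28.8 and 33.1 CPM in WT and 38.4, 34.0 and 30.7 CPM in enhancer KO, with overlapping groups. The log2 change came to 0.07 with an SE of 0.0946 and a 95% interval from -0.14 to 0.29 (edgeR adjusted p = 0.598).

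The balance of Grin2b to Grin2c, genes of the developmental exchange, was higher in each enhancer KO library than in any WT library. The design was too small for this test to pass 0.05. Grin2c had a log2 fold change of -0.79 and Grin2b of 0.05. In bulk tissue the ratio does not show whether granule neurons exchanged these subunits differently. Ratios of read counts within a library do not depend on its scaling, but a trend over gene structure does not cancel in them. The log2 ratio of Grin2b to Grin2c was -0.51, -1.11 and -1.12 in WT replicates 1 to 3, where Grin2c had more reads, and 0.01, 0.20 and -0.37 in enhancer KO replicates 1 to 3. Every enhancer KO library was above every WT library, although enhancer KO replicate 3 and WT replicate 1 came close. The mean log2 ratio was -0.91 ± 0.35 in WT and -0.05 ± 0.29 in enhancer KO (SD, n = 3), a difference of 0.86 or 1.81-fold (exact two-sided permutation p = 0.1, the smallest possible, adjusted 0.15 over the 3 ratios). Granule marker sums differed in the same libraries and nuclei marker sums were lower in WT replicates 2 and 3, and their part in the ratio was not tested. Without WT replicates 2 and 3 the difference was 0.46, and with the gene structure trend removed it was 1.06.

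The ratio of Grin2c to Grin2a was lower in each enhancer KO library, and that of Grin2b to Grin2a overlapped. The log2 ratio of Grin2c to Grin2a was 1.79, 1.85 and 2.06 in WT and 1.2, 1.08 and 1.39 in enhancer KO, a difference of -0.68 (exact two-sided permutation p = 0.1, adjusted 0.15). The log2 ratio of Grin2b to Grin2a was 1.28, 0.74 and 0.94 in WT and 1.21, 1.28 and 1.02 in enhancer KO, a difference of 0.18 (exact two-sided permutation p = 0.3, adjusted 0.3). Here WT replicate 1 was as high as the enhancer KO libraries, and without WT replicates 2 and 3 the difference was -0.11. With the gene structure trend removed, the difference was -0.79 for Grin2c to Grin2a and 0.27 for Grin2b to Grin2a.

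**Figure D3:**
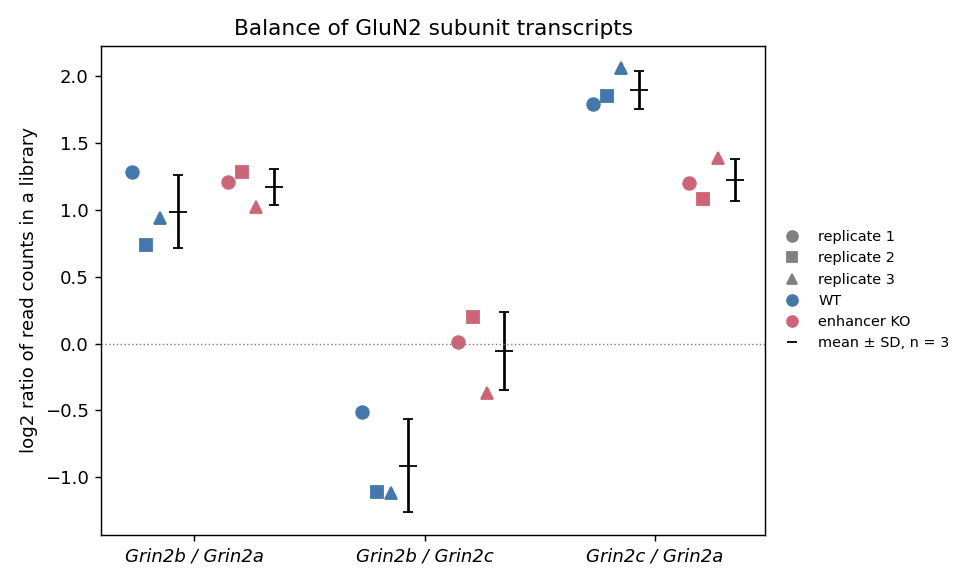
Log2 ratio of read counts between pairs of GluN2 genes, with 1 point per library and the mean ± SD of 3 libraries beside each group; the dotted line marks equal counts. Grin2b to Grin2c was -1.12 to -0.51 in WT and -0.37 to 0.20 in enhancer KO, and Grin2b to Grin2a overlapped between the groups.

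Levels of different members can be compared only per length, and the annotated lengths differ in what they include. Grin2a and Grin2b have long 3′ ends, so that their longest transcripts (14634 and 24060 bases) far exceed their coding sequences (4392 and 4446 bases), and the annotation used for the counts is not given in the sources used here. Per kilobase of coding sequence, Grin1 led in WT at 121 ± 6.22 CPM per kb, followed by Grin2c at 33.2 ± 3.21, Grin3a at 29.1 ± 1.23, Grin2b at 14.8 ± 2.22, Grin2d at 8.18 ± 0.864, Grin2a at 7.51 ± 0.476 and Grin3b at 0.895 ± 0.168 (SD, n = 3). Grin2d and Grin2a did not differ beyond their spread. In enhancer KO, Grin3a stood above Grin2c, at 32 ± 2.22 against 19.2 ± 3.05 CPM per kb, and the other members kept this order. Per kilobase of the longest transcript Grin2d ranked above Grin2b, at 5.98 ± 0.631 against 2.74 ± 0.410 CPM per kb in WT, and in enhancer KO Grin2c (14.6 ± 2.32) and Grin3a (14.5 ± 1.01) were level within their spread.

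Within the GluN2 genes, Grin2c had the largest share in every library by either length, with a smaller share in enhancer KO. Per base of coding sequence it took 46.9%, 54.6% and 54.9% of the GluN2 signal in WT replicates 1 to 3 and 36.5%, 34.8% and 43.3% in enhancer KO replicates 1 to 3. Per base of the longest transcript it took 65.3% to 72.0% in WT and 53.1% to 61.9% in enhancer KO. The share of Grin2b per coding base was 21.1% to 27.5% in WT and 27.9% to 33.4% in enhancer KO, while its own level overlapped between the groups. Shares of Grin2a and Grin2d per coding base were likewise higher in every enhancer KO library, at 13.5% to 14.0% against 11.1% to 12.8% and at 14.8% to 19.2% against 11.5% to 14.2%. Shares sum to the whole, so a fall of 1 member raises the others.

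**Figure D4:**
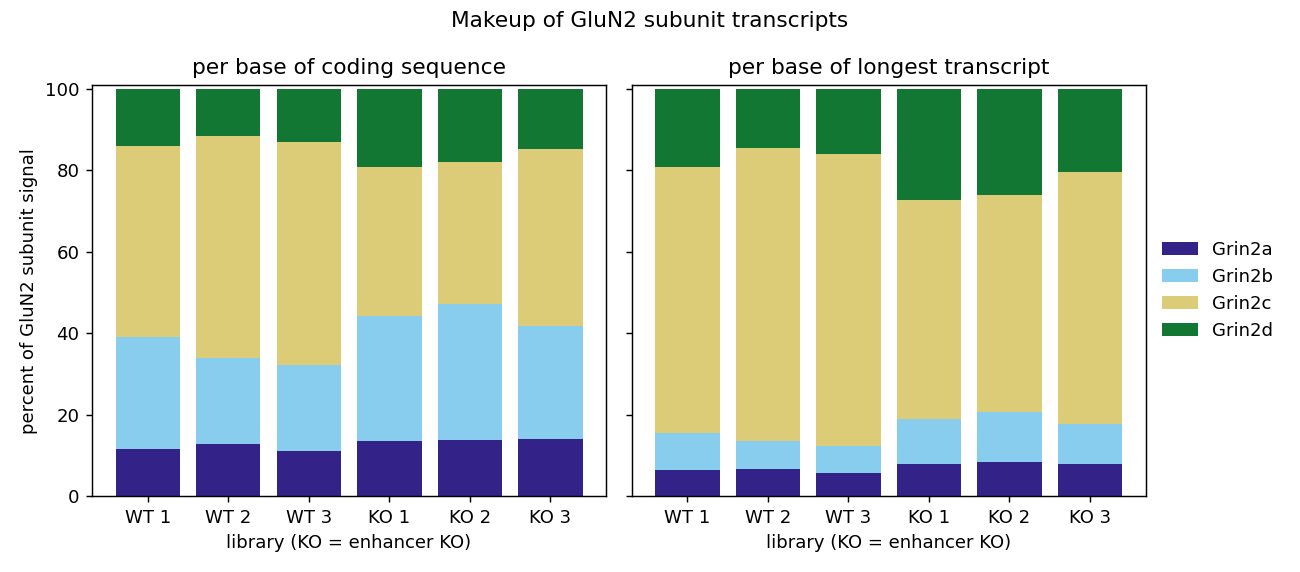
Stacked bars of the share of each GluN2 gene in the length-scaled reads of the 4 GluN2 genes, in percent, for each library, per base of coding sequence (left) and of the longest transcript (right). By coding length Grin2c took 46.9% to 54.9% in WT and 34.8% to 43.3% in enhancer KO, and by transcript length its shares were larger in every library.

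The GluN3 genes did not pass either. Grin3a, a subunit of juvenile receptors that lowers calcium entry, lies on chromosome 4 at 49661611 to 49845744. It was at 104, 96.1 and 97.6 CPM in WT replicates 1 to 3 and at 111, 115 and 100.5 CPM in enhancer KO replicates 1 to 3, where only enhancer KO replicate 3 lay within the WT range. Grin3a had a log2 change of 0.13 with an SE of 0.0546 (edgeR adjusted p = 0.0835). It was called higher with WT replicate 1 removed (edgeR adjusted p = 0.0379), with enhancer KO replicate 3 removed (0.0116), with no filter on low counts (0.0423), without Rn45s and ribosomal protein genes (0.0467) and with the gene structure trend removed (0.00219). Grin3b, known from motor neurons, lies on chromosome 10 at 79970715 to 79977190 and had few reads, from 44 to 114 per library. It was at 3.15, 2.15 and 2.78 CPM in WT and 2.10, 2.18 and 2.73 CPM in enhancer KO, and the groups overlapped. Its log2 change was -0.22 with an SE of 0.188 and a 95% interval from -0.63 to 0.19 (edgeR adjusted p = 0.417).

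**Figure D5:**
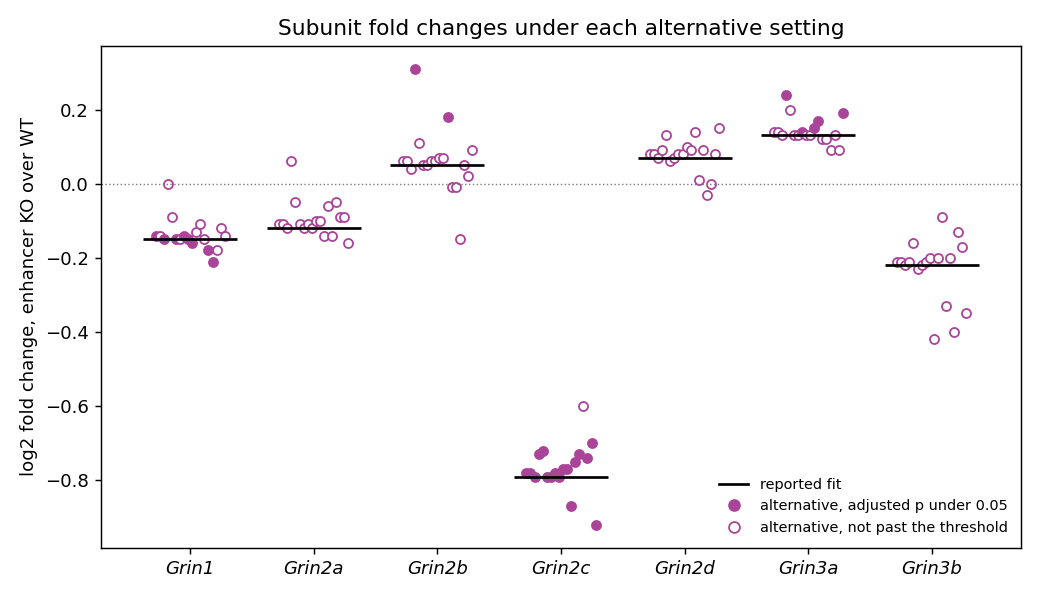
Log2 fold change of each member, enhancer KO over WT, in the reported fit (line) and under 18 alternative settings (points), filled where the edgeR, limma-voom or DESeq2 adjusted p was under the threshold. Grin2c stayed between -0.92 and -0.60 and was called in 17 of 18, Grin1 in 8, Grin3a in 5 and Grin2b in 2, where its values ran from -0.15 to 0.31.

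Genes that anchor, deliver, modify and feed NMDA receptors were counted from 6 lists with 58 members, all tested. Of these 12 rose and 7 fell, 32.8% called against 31.3% of all genes, with a median log2 fold change of 0.06. Over all genes tested, 13.4% were called higher and 17.9% lower. The single lists, of 7 to 12 genes, were not tested against these shares. The same libraries differed in reads outside exons (32.4% in WT, 17.4% in enhancer KO) and in granule markers, and beyond the trend over gene structure their part in these changes was not tested. With that trend removed, scaffolds had 5 higher and 1 lower, transport and delivery 3 higher and 0 lower, kinases and phosphatases 4 and 0, calcium effectors 3 and 1, co-agonist supply 3 and 0, and the exchange regulators 2 and 1. Each of the 19 called genes lost its call at a minimum fold of 1.2.

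Scaffolds of the postsynaptic density had 4 higher and 2 lower of 12. Shank1, a master scaffold, rose from 615 ± 41.0 CPM in WT to 722 ± 28.6 CPM (SD, n = 3) with an edgeR adjusted p = 0.00660. Dlg4, which encodes PSD-95 and holds GluN2 tails, rose by 0.16 on the log2 scale, while Dlg1, which encodes SAP97, fell by 0.16. Dlg4 was no longer called with WT replicate 2, WT replicate 3 or enhancer KO replicate 1 removed, and Dlg1 without WT replicate 2 or enhancer KO replicate 1, with library size alone or with the gene structure trend removed. Without WT replicate 2, or without enhancer KO replicate 1, the list had 1 higher and 1 lower member. Of the 7 genes for transport and delivery 0 were called by edgeR, and 1, Kif17, a kinesin gene that carries GluN2B, had an unadjusted p under 0.05 (0.0256). limma-voom and DESeq2 each called 0 as well. Apba1, an adaptor of the transport complex, went from 284 to 303 CPM and Lin7a from 179 to 163 CPM.

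Among kinases and phosphatases 3 of 10 rose and 0 fell (over all genes 13.4% higher and 17.9% lower). Ppp3cb, a catalytic subunit of calcineurin, rose by 0.20 and Src, which phosphorylates GluN2 tails, by 0.19 on the log2 scale. The summed Purkinje markers (12 genes, none at 0) were at 4857 to 5818 CPM in WT and 6641 to 7130 CPM in enhancer KO, and their part in these levels was not tested. Calcium effectors had 2 higher and 1 lower of 8. Calm3, a calmodulin gene, rose from 1198 ± 42.1 to 1389 ± 53.3 CPM (SD, n = 3), and Camk4, a nuclear calcium kinase abundant in granule neurons, fell from 599 ± 72.6 to 416 ± 64.0 CPM. The Camk4 call needed WT replicates 2 and 3 and enhancer KO replicates 1 and 2, each of which ended it when removed.

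Co-agonist supply, the enzymes and transporters of serine and glycine, had 2 higher and 1 lower of 11. The serine synthesis genes Psat1 and Psph rose by 0.18 and 0.26 on the log2 scale, and Shmt2, which turns serine into glycine in mitochondria, fell by 0.23. The Psph call ended with WT replicate 1, WT replicate 3, enhancer KO replicate 2 or enhancer KO replicate 3 removed and with DESeq2. That of Shmt2 ended without WT replicate 3 or enhancer KO replicate 1, with library size alone and with the gene structure trend removed. The serine racemase gene Srr, which makes D-serine, had a log2 fold change of -0.01.

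Of 10 genes known to act on the exchange of GluN2 subunits, 3 fell and 1 rose (over all genes 17.9% lower and 13.4% higher). Etv1, an ETS factor of granule neurons that is also on the granule marker list, fell from 155 ± 21.1 to 104 ± 11.0 CPM, and Erbb4, the neuregulin receptor, from 65.7 ± 4.999 to 55.1 ± 2.25 CPM (SD, n = 3). Nfib, a nuclear factor I gene of granule maturation, fell by 0.26 on the log2 scale, and Ntrk2, the receptor of BDNF, rose from 620.3 ± 24.7 to 742 ± 11.8 CPM (edgeR adjusted p = 0.000997). Etv1 lost its call without enhancer KO replicate 1, Nfib with WT replicate 2, WT replicate 3, enhancer KO replicate 1 or enhancer KO replicate 2 removed, and Erbb4 and Nfib with library size alone or with the gene structure trend removed. The neuregulin gene Nrg1 and the ligand gene Bdnf had log2 fold changes of 0.03 and 0.13, and Rest, a repressor of neuronal genes including Grin2b, of 0.09.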

How the data were processed

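RNA of 6 mouse samples was sequenced in bulk. Per the submitters' processing notes, reads were trimmed with Trimmomatic and aligned with STAR to mm10; no source used here gives versions, settings or annotation. The deposited files hold whole-number read counts per gene, not normalized by the authors, in STAR's layout, with an unstranded column and one per strand after 4 rows that name no gene. Those rows, 35.9% to 61.9% of all reads in a library, stayed out of library sizes and tests. Column 4 held over 80% of the stranded reads in every library and was used. Replicates were compared by chi-square, and no pair agreed within sampling noise (median per gene 1.08 in the closest pair, 0.455 for noise alone).

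Of 24411 genes, 15846 passed filterByExpr of edgeR 4.0.16 (R 4.3.3). After TMM scaling the groups were compared by edgeR's robust quasi-likelihood test, two-sided, with Benjamini-Hochberg adjustment over all genes and a threshold of 0.05. SE came from the fold change and the F statistic, and 95% intervals from the SE and the test's degrees of freedom. Ratios between members were tested by exact permutation over libraries. CPM were computed on TMM-scaled library sizes. GENCODE release M21 on mm10 gave positions, lengths and GC content, and 23334 symbols matched directly and 668 by an older symbol. The trend over gene structure was fitted with mgcv 1.9.3. Alternatives also used limma 3.58.1 and DESeq2 1.42.0. The test was checked on simulated counts. Named were the 7 members, up to 4 called genes of each pathway list with the smallest adjusted p (or its 2 most abundant where none passed), and the 5 genes most like Grin2b and Grin2c. Srr, Nrg1, Bdnf, Rest, Camk2a, Kif17, Th, Slc17a6, Gata2, Gata3, Tal1, Sox14, Tph2, Otx2, Pou4f1, Lmx1b and Arr3 fall outside this rule and were chosen after their values were seen. Members and lists were chosen with earlier results of these data known. Some genes and sequences that the rule names are not reported here.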

Additional observations from a re-analysis of the deposited data

How the results depend on the processing

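The 4964 genes called (57.3% lower) became 991 at a minimum fold of 1.2 (91.6% lower) and 3129 without WT replicates 2 and 3. They numbered 3652 to 4924 when single libraries were left out. Library size alone gave 43.8% lower, and removal of the gene structure trend 36.9%. The number of subunits called was 2, and 1 with RLE scaling, with library size alone, at a minimum fold of 1.2 and without WT replicates 2 and 3. It was 3 with no filter on low counts (1 higher) and with the gene structure trend removed (2 higher). It ranged from 1 to 3 when single libraries were left out, with 3 (2 higher) without WT replicate 1. Removing the gene structure trend turned Grin1 to 0.00 and Grin2a to 0.06 on the log2 scale. Without WT replicates 2 and 3, Grin2b was at -0.15, Grin2d at -0.03 and the log2 ratio of Grin2b to Grin2a at -0.11. Leaving out single libraries moved Grin2b between -0.01 (without WT replicate 2 or 3) and 0.18 (without WT replicate 1). The cause was not tested. With the replicate block 4596 genes and 2 subunits were called, Grin2c at -0.79, and the block changed no call among the members. Deviations of same-numbered libraries correlated at 0.053, -0.043 and -0.087, and those of unlike numbers reached 0.123. No pairing by number was seen, and so few libraries cannot exclude one. Grin3b had 44 to 114 reads per library, the fewest of the members.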

Other observations

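Strand mattered most for Grin1 and Grin3b, which overlap genes on the opposite strand. Exons of Grin1os, an antisense gene, cover 1307 bases of Grin1 exons, and Grin1 had 7055 to 12880 reads in the column for its own strand but 4320 to 7732 in the unstranded column. Grin1 had 11941 and 7361 reads, respectively, in WT replicate 1. Exons of Tmem259 cover 1059 bases of Grin3b exons, and reads on the strand opposite Grin3b, 66 to 141 per library, outnumbered its own, 44 to 114.

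Camk2a, a kinase gene that binds the tail of GluN2B and is on the list of kinases and phosphatases, went from 122 to 184 CPM, a log2 change of 0.58 with an SE of 0.181 that missed the threshold (edgeR adjusted p = 0.0716). It was chosen after its values were seen.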
